A study of Mus musculus with 5 samples.

Results

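The expression of Col10a1 and of 8 genes of mineralization, Ibsp, Spp1, Dmp1, Alpl, Phospho1, Enpp1, Slc20a1 and Bglap, was described across the cells of mouse growth plates. They were chosen by name, with no limit on their measured values, and together they are 9 of the 29818 genes in the deposited count matrices. The matrices hold unique molecular identifiers (UMIs), each of which counts 1 captured RNA molecule. Single cells came from the femoral and tibial growth plate cartilage of 5 littermate pups whose strain is labelled C57BL/6J, with 1 BD Rhapsody HT Express library per pup. Pups 1 and 2 carried the WT label. Pups 3, 4 and 5 carried the mutant label, which stands for heterozygous p.R594H Trpv4 made by recombining a conditional knock-in allele with Col2a1-Cre, a Cre driver expressed in chondrocytes. Per the methods of the study, the Cre line was made in B6SJLF1 mice before crossing to C57BL/6J, and how much SJL background each pup kept was not given in the sources used here. Trpv4 encodes a calcium-permeable ion channel. The sample labels give the age as postnatal day 5 and the design text as day 3. Whether the WT pups carried Cre or the unrecombined allele was not given in the sources used here. UMI counts do not read the substituted base, so the labels could not be checked from Trpv4 itself.

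In endochondral bone growth, chondrocytes of the growth plate stop dividing, enlarge into hypertrophic chondrocytes and deposit a matrix rich in type X collagen, which then mineralizes and is replaced by bone. Mineral forms where phosphate is released and pyrophosphate, an inhibitor of mineral, is removed. Osteoblasts later build bone on the calcified cartilage with type I collagen and a set of acidic, mineral-binding glycoproteins.

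The 5 files held 117746735 to 183322632 UMIs, and 82516 cells were kept. Median depth in kept cells was 9261 and 8521 UMIs in the WT pups and 6657, 6000 and 7016 in mutant pups 3, 4 and 5. Xist had a UMI in 89.8% and 88.4% of kept cells of mutant pups 3 and 4 and in 0.109% to 0.174% of those of the other pups, so mutant pups 3 and 4 differed in sex from the WT pups and mutant pup 5 did not. Cells were placed in classes by summed marker UMIs that left out the 9 genes. The hypertrophic class held 2331 cells (248 to 762 per pup), with Ihh at 243 counts per 1000000 UMIs (CPM), Panx3 at 2134, Col2a1 at 70353 and Col1a1 at 1536 over the cells of all pups. The osteoblast-like class held 343 cells (17 and 65 in the WT pups, then 174, 61 and 26), with Col1a1 at 131914 and Sp7 at 455. Other chondrocytes numbered 41391, and 35415 remaining cells met no rule. Macrophages (977 cells), endothelial cells (446), erythroid cells (334) and granulocytes (105) served as background. Erythroid cells numbered 12 to 184 and granulocytes 4 to 50 per pup, so a median of 0 in either can be a floor and not a level. A class of 119 Mmp13-high cells, defined after the data were seen, had Mmp13 at 19863 and Mmp9 at 11243 with C1qa at 0, and was given no cell type name. Its Mmp13 level follows from the rule, and so does low C1qa, since cells with 10 or more macrophage-list UMIs were left out. Mmp9 was found in 43.7% of these cells, with Acp5 at 2.40 and Fcer1g at 23.2 CPM. The class limits cut through a continuum: 404 hypertrophic cells lay within 25% above the limit and 647 cells within 25% below it, and 61 and 270 did so for the osteoblast-like limit. In sums over a class, fewer cells of a type and less RNA per cell cannot be told apart. Intervals and count limits cover counting error only.

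Promoter windows are shown for genes whose RNA lay mainly in hypertrophic cells, in osteoblast-like cells, and in several classes. Each is the 250 bases before a RefSeq start on GRCm38.p6, read 5′ to 3′ on the strand of the gene, and the capitals mark a TATA motif (TATAAA) or a core of the RUNX motif (TGTGGT, or ACCACA on the other strand). The Col10a1 window (chr10:34389731-34389980, plus strand) held TATAAA 32 bases before the start and no RUNX core. The Bglap window (chr3:88384467-88384716, minus strand) held ACCACA 132 bases and TATAAA 27 bases before the start. The Spp1 window (chr5:104434861-104435110, plus strand) held TATAAA 211 bases and ACCACA 128 bases before the start.
Col10a1: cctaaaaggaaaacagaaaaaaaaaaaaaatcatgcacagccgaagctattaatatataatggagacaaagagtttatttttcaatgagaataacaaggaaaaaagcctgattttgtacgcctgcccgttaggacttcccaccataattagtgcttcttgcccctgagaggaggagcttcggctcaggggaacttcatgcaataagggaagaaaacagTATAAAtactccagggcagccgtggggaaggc
Bglap: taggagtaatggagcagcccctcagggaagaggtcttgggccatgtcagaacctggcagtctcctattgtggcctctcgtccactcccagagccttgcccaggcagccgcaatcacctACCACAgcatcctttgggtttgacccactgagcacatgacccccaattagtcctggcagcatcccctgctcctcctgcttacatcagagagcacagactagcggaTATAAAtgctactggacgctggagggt
Spp1: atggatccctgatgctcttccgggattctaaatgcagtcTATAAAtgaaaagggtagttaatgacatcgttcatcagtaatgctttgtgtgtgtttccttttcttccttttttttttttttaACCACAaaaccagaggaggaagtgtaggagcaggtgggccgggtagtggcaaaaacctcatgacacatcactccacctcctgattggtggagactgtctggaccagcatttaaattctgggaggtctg
All 9 genes had at least 1 window, 13 windows in all. Searched on both strands, the RUNX core lay in 5 of the 13 windows (1 each of Spp1, Dmp1, Enpp1, Slc20a1 and Bglap), against 14.0% of 32851 windows of all genes. TATAAA lay in 5 of the 13 (1 each of Col10a1, Ibsp, Spp1, Alpl and Bglap), against 12.4% of all windows. The AP-1 motif TGANTCA lay in 1 of the 13, that of Phospho1, against 6.75%. These motifs do not overlap in letters, and a match describes the letters only.

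Col10a1 encodes the chain of type X collagen, the network-forming collagen that marks hypertrophic cartilage. It lies on the plus strand at chr10:34389981-34397085 (GRCm38) and shares 18 exonic bases with the antisense gene Nt5dc1. In the hypertrophic class its summed level was 3384 and 4748 CPM in WT pups 1 and 2 and 7236, 3715 and 4402 CPM in mutant pups 3, 4 and 5. In other chondrocytes it was 78.9 and 45.2 CPM in the WT pups and 83.0, 66.7 and 48.3 CPM in the mutant pups. Each hypertrophic value lay above every value of the other chondrocytes. The difference was 6.21 on the log2 scale (SE 0.30, 74.1-fold, adjusted p = 5.2e-05, edgeR with pup as a block). Of the 336073 Col10a1 UMIs, 89.4% lay in the hypertrophic class, which held 7.90% of all UMIs, and 7.55% lay in other chondrocytes.

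**Figure D1:**
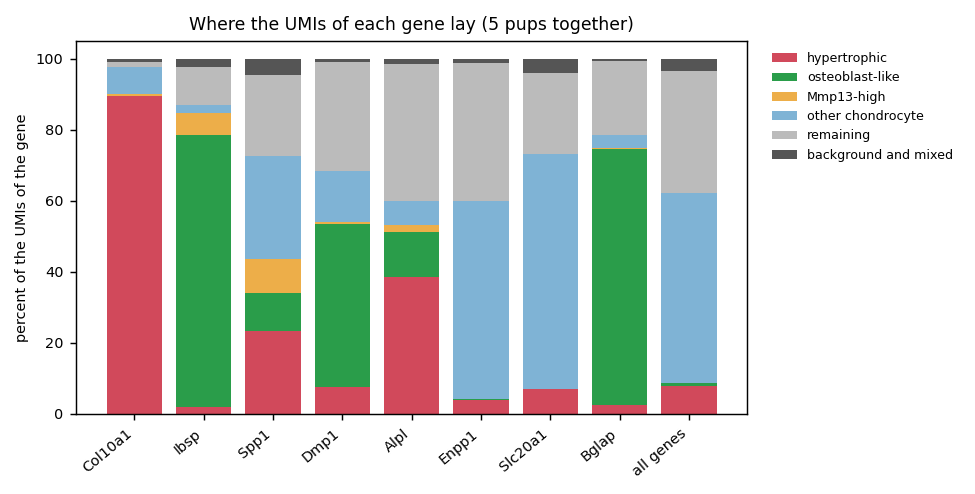
Percent of each gene's UMIs (y axis) found in each cell class, with the 5 pups summed, and the same for all genes in the last bar; Phospho1, with 4 UMIs, is left out. Hypertrophic cells hold 89.4% of Col10a1 UMIs and osteoblast-like cells 76.7% of Ibsp UMIs, while the bars of Enpp1 and Slc20a1 are nearest to that of all genes.

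Outside the hypertrophic class the order of Col10a1 was other chondrocytes (median 66.7 CPM), Mmp13-high cells (52.1), macrophages (11.8), osteoblast-like cells (11.0), remaining cells (9.40), erythroid cells (9.12), endothelial cells (6.57) and granulocytes (0). Neighbours in this order had overlapping ranges over pups. The smallest granulocyte sum held 14861 UMIs, so the granulocyte median is a floor and its last place is not a rank. Over all pups 13 Col10a1 UMIs lay among the 897529 UMIs of granulocytes. In the Mmp13-high class the values ran from 10.3 to 3670 CPM, and 5 cells held 97.1% of the class's Col10a1 UMIs. In other chondrocytes 5 cells held 40.8% of them. A Col10a1 UMI was found in 6.62% of other chondrocytes (median 7940 UMIs), 7.27% of macrophages (7202) and 7.17% of endothelial cells (6634), so the share in other chondrocytes was at background. In hypertrophic cells the share was 64.4% at a median of 25333 UMIs, and the mean over pups was 47.0% once each cell was thinned to 5000 UMIs.

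Within the hypertrophic class Col10a1 was uneven. The median cell held 0.326 and 0.962 Col10a1 UMIs per 10000 in the WT pups and 1.86, 0.825 and 0.722 in the mutant pups, and 31.4% to 43.1% of cells held none. The 10% of cells with the most Col10a1 held 65.0% to 84.5% of the UMIs in each pup. The class was set by 7 other markers. In its single-cell data the study told hypertrophic chondrocytes apart by Col10a1 and counted prehypertrophic cells among the proliferating chondrocytes. The class here is therefore not the study's hypertrophic group, and prehypertrophic cells were not separated from it. Cells with under 1 Col10a1 UMI per 10000 made up 50.8% of the class, and Pth1r was found in 96.8%, Sp7 in 91.2% and Ihh in 58.9% of them. Of the other class markers, Sgms2 was found in 98.0%, Panx3 in 97.3%, Cd200 in 56.7% and Mmp13 in 5.83%. Their summed UMIs set the class, so these shares follow in part from the rule and do not tell what the cells are. Cells with 1 to 10 made up 19.0%, those with 10 to 50 made up 10.7%, and those with 50 or more made up 19.5%. The last share was 14.5% and 17.8% in the WT pups and 26.9%, 14.9% and 14.9% in the mutant pups, and the groups overlapped. Median depth with the pups pooled was 24060 to 27642 UMIs among these 4 bins, but it differed more within pups. In mutant pup 5 it was 21512 UMIs in the lowest bin and 29754 in the bin of 10 to 50. In every pup the bins under 10 were shallower than those of 10 and over. Shares of cells with a UMI were not thinned by bin.

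The other genes were read across these bins as a description, since the bins share pups and libraries, though each cell lies in 1 bin only. Alpl rose with Col10a1: its pooled level was 50.6, 104, 252 and 730 CPM from the lowest to the highest bin, and this order held in 5 of 5 pups. Of the 7 markers that defined the class, Ihh, Pth1r and Cd200 rose at each step, from 116 to 531, 441 to 1374 and 64.6 to 301 CPM. Panx3 and Sgms2 were highest in the bin of 10 to 50, at 2475 and 1940 CPM, Sp7 stayed between 141 and 175 CPM, and Mmp13 was at 55.5, 10.9, 15.2 and 178 CPM. Spp1 summed over pups was 207, 207 and 260 CPM in the first 3 bins and 1018 CPM in the highest. In WT pup 2 it rose at each step (81.9, 140, 268 and 1195 CPM), and in the other pups it did not rise at each step but was highest in the last bin. Ibsp was low in the first 3 (7.01, 1.44 and 18.7 CPM) and reached 85.5 CPM. Enpp1 stayed between 86.1 and 99.2 CPM and Slc20a1 between 36.9 and 47.4 CPM. Dmp1 was at 0.387, 0.0898 and 0.293 CPM in the first 3 and at 27.3 CPM in the highest, where 2.42% of cells held its 339 UMIs. Thus the sums of Alpl, Spp1 and Ibsp were highest over the highest Col10a1 cells, and Enpp1 and Slc20a1 did not follow. In that bin 94.9% of cells had an Alpl UMI, 47.1% an Spp1 UMI and 23.1% an Ibsp UMI. The Spp1 share differed among pups, at 71.4% and 29.3% in the WT pups and 48.3%, 54.9% and 45.9% in the mutant pups, and the Ibsp share was 13.5% to 26.3%. In that highest bin Alpl was 940 and 794 CPM in the WT pups and 660, 713 and 658 CPM in the mutant pups, while Spp1 was 790 and 1195 CPM against 903, 1198 and 1097 CPM.

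**Figure D2:**
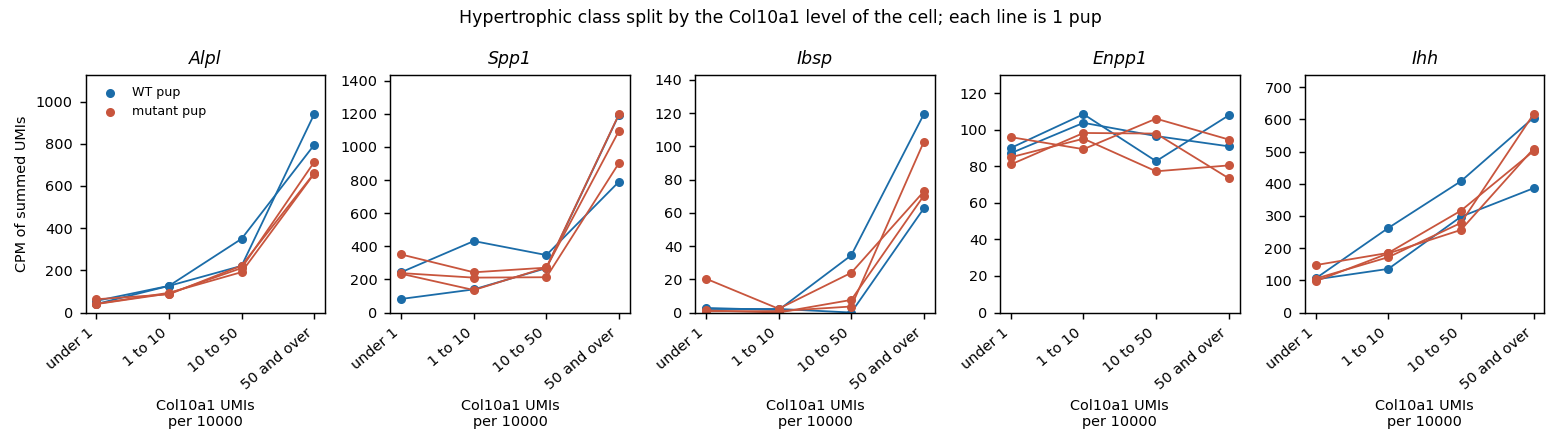
CPM of summed UMIs (y axis, a separate scale for each gene) of Alpl, Spp1, Ibsp, Enpp1 and Ihh in hypertrophic cells split by Col10a1 UMIs per 10000 (x axis), with 1 line per pup. Alpl rises at each step in every pup, Spp1 and Ibsp are highest in the last bin in every pup, and Enpp1 stays between 73.4 and 108 CPM.

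Genes whose level was most like that of Col10a1 were ranked by Pearson correlation of log2(CPM + 1) over 42 sums of 1 pup and 1 class, among 6611 genes of at least 20 CPM on average. The first 5 were Prkg2 (0.82), a cGMP-dependent protein kinase gene, Pak3 (0.78), Akt2 (0.76), Stk39 (0.76) and Il17b (0.76). Alpl ranked 546th at 0.47 and Ibsp 1915th at 0.20. For Ibsp the first 5 were Phex (0.88), Alpl (0.86), Cdh2 (0.84), Gpx3 (0.84) and Tcf7 (0.84), and Dmp1 ranked 7th at 0.83. The sums share libraries and differ in depth, so these values carry no p. By medians over pups, Prkg2 was at 329 CPM in hypertrophic cells and 3.79 CPM in osteoblast-like cells, and Phex, an endopeptidase gene of phosphate balance, was at 14.1 and 226 CPM.

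Ibsp, Spp1 and Dmp1 encode secreted acidic glycoproteins that bind integrins and mineral, and they lie near one another on chromosome 5. Ibsp (chr5:104299171-104311469, plus strand), bone sialoprotein, was the member most concentrated in osteoblast-like cells. Its level there was 7777 and 9728 CPM in the WT pups and 15052, 6827 and 4691 CPM in the mutant pups. In hypertrophic cells it was 11.2 and 29.2 CPM in the WT pups and 33.1, 12.8 and 18.5 CPM in the mutant pups. The classes did not overlap, and osteoblast-like cells were higher by 8.76 on the log2 scale (SE 0.22, adjusted p = 8.67e-23, edgeR with pup as a block). Of the 76175 Ibsp UMIs, 76.7% lay in the osteoblast-like class, which held 0.674% of all UMIs. Another 10.8% lay in the remaining cells, 6.25% in Mmp13-high cells and 1.84% in hypertrophic cells.

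Mmp13-high cells came next in the order for Ibsp, with a median of 657 CPM and a range from 161 to 8662 CPM that overlapped the osteoblast-like range. They were followed by remaining cells (35.6), hypertrophic cells (18.5), endothelial cells (4.23), other chondrocytes (3.29), macrophages (2.71), and erythroid cells and granulocytes (both 0). The ranges of the remaining and hypertrophic cells overlapped, as did those from endothelial cells downward. Although low, hypertrophic Ibsp exceeded that of other chondrocytes (2.08 to 8.22 CPM) in each pup, by 2.37 on the log2 scale (SE 0.18, adjusted p = 8.6e-06). A UMI was found in 8.28% of hypertrophic cells against 2.46% of macrophages. Thinned to 5000 UMIs, the share in hypertrophic cells was 2.05% to 5.50% over pups and that in macrophages 0.952% to 1.90%. In osteoblast-like cells the share was 75.8%.

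Spp1 (chr5:104435118-104441050, plus strand), osteopontin, was shared among several classes. Its exons share 18.8% of their bases with the same-strand transcript Gm42793, so some of its reads could have been split. Of the 96430 Spp1 UMIs, 29.0% lay in other chondrocytes, 23.4% in hypertrophic cells, 22.8% in remaining cells, 10.6% in osteoblast-like cells, 9.62% in Mmp13-high cells and 2.61% in macrophages. By level, Mmp13-high cells came first at 4785 and 7559 CPM in the WT pups and 11688, 4798 and 1520 CPM in the mutant pups. Osteoblast-like cells followed at 4519 and 2523 CPM in the WT pups and 1997, 1384 and 649 CPM in the mutant pups. These ranges overlapped, so the first place was not separated from the next.

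Hypertrophic cells came next for Spp1, at 365 and 335 CPM in the WT pups and 426, 370 and 443 CPM in the mutant pups. Their range lay below the osteoblast-like range in all pups. Macrophages, which are known to make osteopontin, spanned 114 to 1358 CPM and overlapped both. The macrophage class also held osteoclast markers, summed at 223 to 5462 CPM over pups. Both that sum and Spp1 were highest in mutant pup 5, and the part of osteoclasts in this was not tested. Granulocytes (median 98.4), remaining cells (86.7) and other chondrocytes (74.3) overlapped one another, and erythroid (8.06) and endothelial cells (5.26) were lowest by median. Spp1 was higher in hypertrophic than in other chondrocytes by 2.49 on the log2 scale (SE 0.08, adjusted p = 3.28e-09). It was higher in osteoblast-like than in hypertrophic cells by 2.31 (SE 0.52, adjusted p = 0.0228), a call that was lost without WT pup 2 (adjusted p = 0.0770), mutant pup 3 (0.0833) or mutant pup 4 (0.0663) and with no filter on low counts (0.0539).

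**Figure D3:**
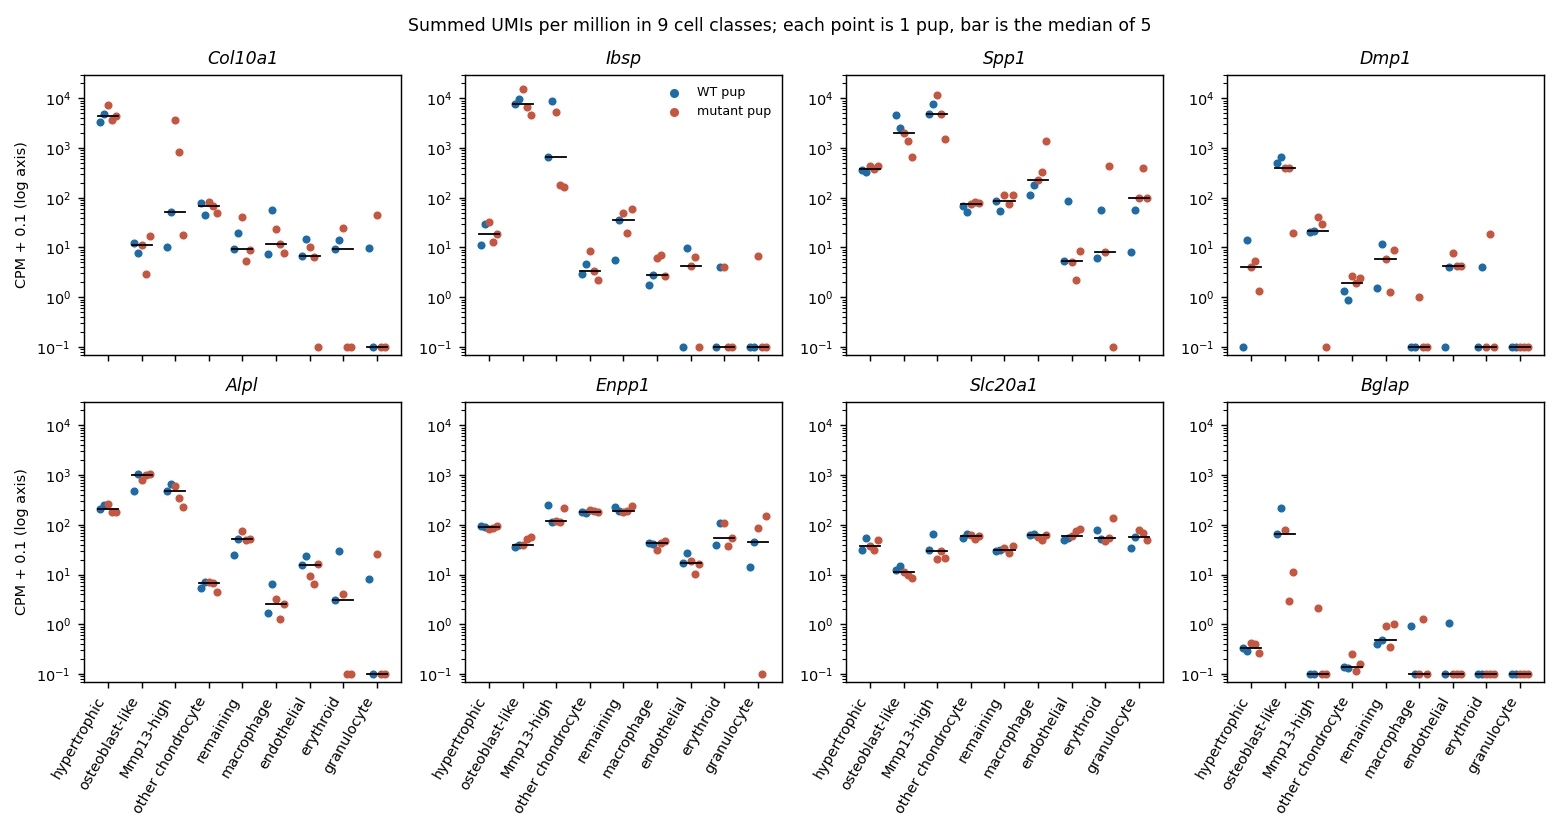
CPM of summed UMIs of 8 genes (log axis, 0.1 CPM added so that 0 can be drawn) in 9 cell classes, with 1 point per pup and a bar at the median of 5. Col10a1 is highest in hypertrophic cells, Ibsp, Dmp1, Alpl and Bglap in osteoblast-like cells and Spp1 in Mmp13-high and osteoblast-like cells, whereas Enpp1 and Slc20a1 vary least.

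Dmp1 (chr5:104202613-104214102, plus strand), dentin matrix protein 1, is known from late osteoblasts and osteocytes. Its level in osteoblast-like cells was 488 and 659 CPM in the WT pups and 403, 388 and 19.4 CPM in the mutant pups. In hypertrophic cells it was 0 and 13.8 CPM in the WT pups and 4.04, 5.22 and 1.21 CPM in the mutant pups, and 5 cells held 87.5% of those 353 UMIs. Osteoblast-like cells were higher by 6.55 on the log2 scale (SE 0.78, adjusted p = 0.00274), whereas hypertrophic and other chondrocytes did not differ beyond their spread (1.37, SE 1.00, adjusted p = 0.292). The Mmp13-high range of 0 to 40.6 CPM (median 21.7) overlapped the osteoblast-like range through mutant pup 5. In order, remaining cells (5.73), endothelial cells (4.14), hypertrophic cells (4.04) and other chondrocytes (1.83) followed with overlapping ranges, and macrophages, erythroid cells and granulocytes had medians of 0. Other chondrocytes thus lay below the endothelial median.

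Alpl, Phospho1, Enpp1 and Slc20a1 handle phosphate and pyrophosphate. Alpl (chr4:137741733-137796384, minus strand) encodes tissue-nonspecific alkaline phosphatase, which cleaves pyrophosphate. Its level in osteoblast-like cells was 492 and 1043 CPM in the WT pups and 791, 1015 and 1056 CPM in the mutant pups. In hypertrophic cells it was 205 and 250 CPM in the WT pups and 260, 182 and 178 CPM in the mutant pups, below every osteoblast-like value. Other chondrocytes held 4.29 to 7.11 CPM, near the endothelial and macrophage medians of 15.8 and 2.51 CPM. Hypertrophic cells exceeded other chondrocytes by 5.19 on the log2 scale (SE 0.09, 36.4-fold, adjusted p = 2.13e-11), and osteoblast-like cells exceeded hypertrophic cells by 2.04 (SE 0.18, adjusted p = 2.03e-08).

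Mmp13-high cells lay between those classes for Alpl, with a median of 472 CPM and a range of 226 to 677 CPM that overlapped both. The remaining cells held 25.1 to 76.6 CPM in every pup, above the other chondrocytes. Of the 34741 Alpl UMIs, 38.5% lay in hypertrophic cells, 38.4% in remaining cells and 12.7% in osteoblast-like cells. A UMI was found in 96.2% of osteoblast-like and 59.6% of hypertrophic cells, against 2.35% of macrophages. With hypertrophic cells thinned to 5000 UMIs their mean share was 34.3%. By median below the other chondrocytes, erythroid cells (3.04 CPM) and macrophages (2.51 CPM) overlapped them. The granulocyte median of 0 is a floor, since some pups had 4 such cells, and 9 Alpl UMIs lay among their 897529. Alpl and Ibsp were called higher in both steps, from other chondrocytes to hypertrophic cells and from these to osteoblast-like cells. So was Spp1, whose second call was lost under the alternatives given with it. Bglap was also called in both, but its hypertrophic level was at background.

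Enpp1 (chr10:24637914-24712159, minus strand) encodes the ectoenzyme that makes pyrophosphate and so opposes mineral. It ran against Alpl between these classes. Its level was 182 and 170 CPM in other chondrocytes of the WT pups and 202, 191 and 184 CPM in those of the mutant pups. In hypertrophic cells it was 95.2 and 92.3 CPM in the WT pups and 84.4, 85.9 and 95.7 CPM in the mutant pups. In osteoblast-like cells it was 36.6 and 39.8 CPM in the WT pups and 38.7, 52.0 and 58.2 CPM in the mutant pups. The 3 ranges did not overlap. Enpp1 fell by 1.00 on the log2 scale from other to hypertrophic chondrocytes (SE 0.06, adjusted p = 8.56e-09) and decreased by 0.96 from these to osteoblast-like cells (SE 0.16, adjusted p = 5.88e-06). The remaining cells (median 194 CPM) and other chondrocytes (184) overlapped at the top of the order. Mmp13-high cells (120) overlapped them. Below the hypertrophic cells, erythroid cells (55.8), granulocytes (44.8), macrophages (43.8) and osteoblast-like cells (39.8) overlapped one another, and the endothelial range (median 17.1) lay below that of osteoblast-like cells.

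Slc20a1 (chr2:129198764-129211616, plus strand) encodes a sodium-dependent phosphate importer that most cells use. Its level was 31.0 and 54.6 CPM in hypertrophic cells of the WT pups and 38.0, 31.7 and 50.2 CPM in those of the mutant pups. Other chondrocytes held 52.0 to 66.5 CPM, which overlapped through WT pup 2, and hypertrophic cells were lower within each pup, by a log2 difference of -0.52 (SE 0.10, adjusted p = 0.00126). Osteoblast-like cells held 12.2 and 15.2 CPM in the WT pups and 11.0, 9.83 and 8.32 CPM in the mutant pups, from 58 UMIs in all. Slc20a1 was too low for the filter on low counts within that class and entered the fit through the hypertrophic sums, so its fitted log2 difference of -1.75 from hypertrophic cells (SE 0.21) is a description and not a test. Medians of macrophages (62.8), endothelial cells (60.1), other chondrocytes (58.6), granulocytes (56.0) and erythroid cells (55.3) had overlapping ranges, so Slc20a1 marked none of them. Hypertrophic (38.0), remaining (32.0) and Mmp13-high cells (29.8) overlapped as well, and the osteoblast-like range lay below every other class.

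Phospho1 (chr11:95824499-95832140, plus strand) encodes a phosphatase that frees phosphate from phosphocholine inside matrix vesicles. It had 4 UMIs in all kept cells: 2 in hypertrophic cells and 1 each in other chondrocytes and remaining cells. None of 343 osteoblast-like cells had a UMI, which allows a share of cells with a UMI of up to 0.875%. The annotated exons of Phospho1 share 89.6% of their bases with Zfp652 on the same strand and 84.2% with Abi3 on the other strand. In hypertrophic cells Zfp652 was at 42.0 to 52.1 CPM and Abi3 at 1.09 to 3.08 CPM. How the counting assigned reads in shared exons was not given in the sources used here, so the level of Phospho1 could not be read from these counts.

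Bglap (chr3:88383501-88384464, minus strand) encodes osteocalcin, a late osteoblast protein that binds calcium. In osteoblast-like cells it was 65.1 and 217 CPM in the WT pups and 77.7, 2.81 and 11.1 CPM in the mutant pups. In hypertrophic cells it was 0.172 to 0.327 CPM, from 15 UMIs, and in other chondrocytes 0.0145 to 0.158 CPM, from 23 UMIs. The remaining cells had a median of 0.383 CPM, and Mmp13-high cells and each background type one of 0. The 15 UMIs among 58784998 of the hypertrophic class compare with 2 among 8005123 in macrophages and 1 among 3694235 in endothelial cells, so hypertrophic Bglap was at background. Of its 631 UMIs, 72.3% lay in osteoblast-like cells, where 13.4% of cells had one, and 5 cells held 79.6% of the class's 456 UMIs, 1 of them 196. The fitted excess of osteoblast-like over hypertrophic cells, 8.33 on the log2 scale (SE 0.53), is set against that background and passed the filter on low counts through the osteoblast-like sums. Bglap, Bglap2 and Bglap3 are near-identical neighbouring copies, so the share of reads given to each is uncertain. Bglap2 was at 24.4 and 167 CPM in the WT pups and 71.3, 15.4 and 13.9 CPM in the mutant pups in osteoblast-like cells.

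Counted over the members, 8 of the 9 genes could be tested between hypertrophic and other chondrocytes, and 7 were called. Col10a1, Alpl, Spp1, Ibsp and Bglap were higher in hypertrophic cells and Enpp1 and Slc20a1 lower, with a median log2 difference of 2.19 over the 8 tested. Bglap was too low for the filter within either class and entered this fit through the hypertrophic sums. Its call (2.01, SE 0.62, adjusted p = 0.0113) rests on the few UMIs given above, at the background level. It is not read as a rise, although it is counted in the 7 and in the median. In the background, 65.0% of 18021 genes were called, 30.8% higher and 34.2% lower, with a median of -0.04. Between osteoblast-like and hypertrophic cells all 8 tested genes were called, against 45.4% of 12464 genes. Bglap was too low for the filter within hypertrophic cells, and Col10a1 and Slc20a1 within osteoblast-like cells, so these 3 entered through the class where they are high and their number supports nothing. Higher were 5 genes (Ibsp, Bglap, Dmp1, Spp1 and Alpl), against 20.6% of genes, and Col10a1 (-9.07, SE 0.23), Slc20a1 and Enpp1 were lower, against 24.8%. The members' median was 2.17 and that of all genes -0.06.

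Of 22 further genes of the mineralization pathway, 21 were tested between hypertrophic and other chondrocytes: 13 were higher, 5 lower and 3 not called, with a median of 0.68. Of all 18021 genes tested, 30.8% were higher and 34.2% lower. Among the pathway genes the largest rises were Smpd3 (3.98, SE 0.10), a sphingomyelinase gene needed for cartilage mineralization, Mef2c (2.62, SE 0.09), a transcription factor of hypertrophy, and Phex (2.31, SE 0.14). Mgp, an inhibitor of cartilage mineralization, decreased by 1.23 (SE 0.09) and Ank, a gene of pyrophosphate export, by 1.78 (SE 0.10), and both were named after their values were seen. Between osteoblast-like and hypertrophic cells 20 pathway genes were tested: 7 were higher, 6 lower and 7 not called, with a median of -0.06. Of all 12464 genes tested, 20.6% were higher and 24.8% lower. Among the pathway genes Bglap2 (8.15, SE 0.36), Mepe (5.92, SE 0.75), a glycoprotein gene of osteocytes, and Phex (3.62, SE 0.67) led. Bglap2 had 14 UMIs in all hypertrophic cells and Mepe 0 to 3 per pup, so both passed the filter through the osteoblast-like sums and their fitted sizes depend on the prior count. Both are counted in the 7 higher, where they support nothing. The Phex call was lost without WT pup 2 (adjusted p = 0.0611) or mutant pup 3 (0.0539). Ank was higher in osteoblast-like cells by 1.66 (SE 0.18), the reverse of its direction among chondrocytes.

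The design also asks whether the mutant label changed these genes. With 2 WT and 3 mutant pups, p-values measure the spread between these pups, and an exact permutation test over pups cannot go below 0.1. The hypertrophic class made up 2.63% ± 1.01 of kept cells in WT pups (SD, n = 2) and 2.81% ± 1.10 in mutant pups (SD, n = 3), an exact two-sided permutation p of 1.0. Osteoblast-like cells made up 0.252% ± 0.198 and 0.480% ± 0.380 (exact permutation p = 0.6). Mmp13-high cells made up 0.0529% and 0.0906% in the WT pups and 0.240%, 0.134% and 0.188% in the mutant pups, which did not overlap (exact permutation p = 0.2). Neither of the classes in which Col10a1 and Ibsp were concentrated differed in share beyond the spread between pups.

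In hypertrophic cells 7 members were tested, and edgeR called none. It called 0 of 13322 genes (0.0%), with 390 genes (2.93%) at an unadjusted p below 0.05, and DESeq2 called 3 genes (0.0225%), Acta2, Aspn and Xist, none of them a member; they and the next such gene are named because their number is small. Col10a1 was 4066 ± 964 CPM in WT pups (SD, n = 2) and 5118 ± 1867 CPM in mutant pups (SD, n = 3), a log2 difference of 0.35 (SE 0.32). Pup 3 was the highest and WT pup 1 the lowest, and the groups overlapped. Without mutant pup 3 the difference was 0.02, without WT pup 1 it was 0.15 and without WT pup 2 it was 0.59. Spp1 was higher in each mutant pup than in either WT pup, by 0.25 (SE 0.11, unadjusted p = 0.0445, adjusted p = 1.0, edgeR). It was the only 1 of 7 members to do so, against 7.17% of genes, and no member was lower in every mutant pup, against 11.6%. A single cell held 10.6% and 19.0% of these Spp1 UMIs in the WT pups and 11.1%, 16.9% and 26.9% in the mutant pups. The median cell held none in any pup. The upper quartile was 2.68 and 0 Spp1 UMIs per 10000 in the WT pups and 1.42, 0.849 and 1.26 in the mutant pups, and by that measure the groups overlapped. The differences were 0.10 for Ibsp (SE 0.55), -0.12 for Alpl (SE 0.17), -0.07 for Enpp1 (SE 0.10), -0.11 for Slc20a1 (SE 0.27) and -0.96 for Dmp1 (SE 1.32), and their groups overlapped.

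The limit of 6000 genes per cell moved with the label. It removed 17.4% and 13.7% of the cells that met the hypertrophic marker rule in WT pups 1 and 2 and 1.93%, 0.418% and 2.36% in mutant pups 3, 4 and 5. With no such limit, an alternative chosen after seeing the data, the Col10a1 difference was 0.29 and that of Spp1 0.36, and neither was called. Over all alternatives the Spp1 difference ran from 0.096 to 0.36.

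In osteoblast-like cells 6 members were tested and edgeR again called none. It called 0 of 6861 genes (0.0%), with 219 (3.19%) at an unadjusted p below 0.05, and DESeq2 called 1 gene (0.0146%), Hspb1, which is no member. On simulated data this fit recovered few of the changed genes, so the count of 0 does not show that genes did not differ. Spp1 was lower in each mutant pup than in either WT pup, with a log2 difference of -1.30 (SE 0.47, unadjusted p = 0.0270, adjusted p = 0.999, edgeR). Dmp1 was also lower in each mutant pup, by -0.97 (SE 1.17), with a range of -1.40 to -0.46 when 1 pup was left out. These 2 of 6 compare with 12.6% of genes that were lower in every mutant pup, and no member was higher in all of them, against 8.99%. Mmp13-high cells were left out of this class even where they met the osteoblast-like rule. They numbered 8 and 15 in the WT pups and 46, 24 and 26 in the mutant pups, with Spp1 at 1520 to 11688 CPM. The separation of Spp1 is given only for the class without them and was not tested with them added. Ibsp (0.08, SE 0.51), Alpl (0.31, SE 0.31), Enpp1 (0.33, SE 0.32) and Bglap (-1.90, SE 1.26) had overlapping groups. The Bglap difference ran from -4.70 without mutant pup 3 to -0.60 without WT pup 2, and neither was called (adjusted p = 0.0841 and 0.950).

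Single cells weighed heavily in those sums. In WT pup 1, with 17 osteoblast-like cells, 1 cell held 33.3% of the Spp1 UMIs, and the largest share in 1 cell was 18.8% in WT pup 2 and 4.86%, 35.6% and 32.9% in mutant pups 3, 4 and 5. The median cell held 2.73 and 1.39 Spp1 UMIs per 10000 in the WT pups and 6.79, 2.48 and 1.44 in the mutant pups. By that measure the groups overlapped and mutant pup 3 was the highest. Of the Dmp1 UMIs in osteoblast-like cells, 5 cells held 49.6%, and the median cell held none in any pup. The summed osteoclast markers were at 329 and 278 CPM in osteoblast-like cells of the WT pups and 362, 350 and 294 CPM in those of the mutant pups, and the summed macrophage markers at 0 to 17.1 CPM. Neither list was higher in both WT pups than in the mutant pups. Cells with 10 or more macrophage-list UMIs were left out by the class rule, which keeps that sum low. The osteoclast sum was mostly Ctsk, at 259 CPM in 89.8% of osteoblast-like cells and at 390 CPM in remaining cells. Neither sum can therefore show whether macrophages or osteoclasts were mixed in. The summed chondrocyte markers were 1342 and 3455 CPM in the WT pups and 2845, 2793 and 8739 CPM in the mutant pups, the last in the pup with the least Spp1 and Dmp1. Their part in the result was not tested.

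The Spp1 difference in osteoblast-like cells depended on the fit. With the presence of Xist as a covariate it was -2.44 and that of Dmp1 -4.93. In that fit the label is estimated from mutant pup 5 alone against the 2 WT pups, since pups 3 and 4 carry the covariate. Mutant pup 5, with 26 osteoblast-like cells, is then assumed to vary like the other pups. With no filter on low counts Spp1 was called at -1.23 (adjusted p = 0.0139), and with the marker limit halved its difference was -0.50 (adjusted p = 0.886). Among all alternatives for this class, 2 called Spp1 lower and 1 called Dmp1 lower, whereas the main fit called neither.

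**Figure D4:**
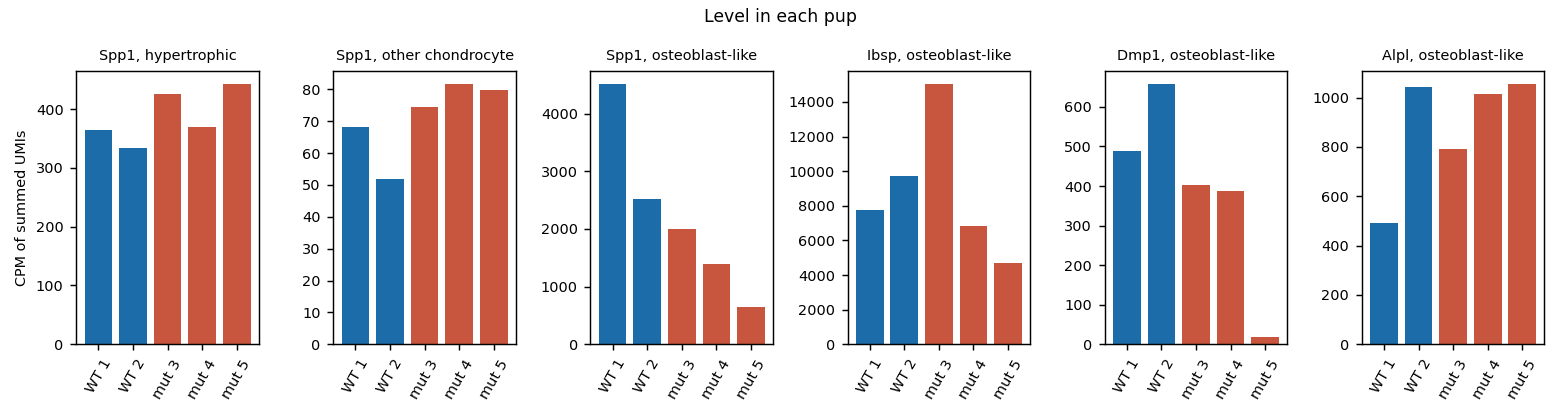
CPM of summed UMIs (y axis from 0, a separate scale for each panel) of Spp1 in 3 cell classes and of Ibsp, Dmp1 and Alpl in osteoblast-like cells; each bar is 1 pup, blue for WT and red for mutant. Spp1 is higher in every mutant pup in hypertrophic and other chondrocytes and lower in every mutant pup in osteoblast-like cells.

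The difference between those differences was fitted in 1 model. For Spp1, the osteoblast-like difference minus the hypertrophic difference was -1.57 (SE 0.48, unadjusted p = 0.0077, adjusted p = 1.0, edgeR), and for Bglap it was -2.39 (SE 1.00, unadjusted p = 0.0255, adjusted p = 1.0). With 15 hypertrophic UMIs over the 5 pups, the value of Bglap has no measurable hypertrophic side. edgeR called 0 of 12464 genes (0.0%), with 447 (3.59%) at an unadjusted p below 0.05. DESeq2 was not run on this model. On simulated data the edgeR fit of this difference recovered few of the changed genes and most of its calls were false, so neither the count of 0 nor single calls under an alternative can be relied on. Spp1 was called here with no filter on low counts (adjusted p = 2.2e-04), without WT pup 2 (-1.75, adjusted p = 0.0134), without mutant pup 3 (-2.00, adjusted p = 1.1e-05) and without mutant pup 4 (-1.77, adjusted p = 0.0144). Without WT pup 2 the WT group is pup 1 alone, with 17 osteoblast-like cells, and is assumed to vary like the mutant pups. Dmp1 was at -0.49 (SE 1.68, adjusted p = 1.0), and was called without WT pup 2 (-7.88, adjusted p = 1.4e-10). The hypertrophic sum of the WT pup then left holds no Dmp1 UMI, so that value depends on the prior count of the fit and is no bound. The opposite directions of Spp1 in the classes were therefore called or not by the choice of pups and filter.

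In other chondrocytes 7 members were tested, and edgeR called none. It called 0 of 18785 genes (0.0%), with 1434 (7.63%) at an unadjusted p below 0.05, and DESeq2 called 78 genes (0.415%), of which Dmp1 was 1. Dmp1 was 1.24 and 0.775 CPM in the WT pups and 2.55, 1.83 and 2.38 CPM in the mutant pups, a log2 difference of 1.21 (SE 0.27, unadjusted p = 0.0021, adjusted p = 0.614, edgeR; adjusted p = 0.0162, DESeq2). These levels lie below the endothelial median of 4.14 CPM, and 5 cells held 47.5% of the 668 UMIs. Spp1 was 68.1 and 51.7 CPM in the WT pups and 74.3, 81.8 and 79.7 CPM in the mutant pups (0.45, SE 0.16, adjusted p = 0.636, edgeR). Spp1, Dmp1 and Enpp1 (0.20, SE 0.10) were higher in every mutant pup, 3 of 7 members against 6.36% of genes, and no member was lower in all of them, against 18.8%. Over the alternatives the Spp1 difference ran from 0.22 to 0.74 and that of Enpp1 from 0.093 to 0.31. Col10a1 (0.14, SE 0.31), Ibsp (0.34, SE 0.54), Alpl (0.02, SE 0.21) and Slc20a1 (0.00, SE 0.09) had overlapping groups. With the marker limits doubled and halved the Col10a1 difference was 0.82 and 1.38 (adjusted p = 0.797 and 0.590, edgeR). Of the further pathway genes, none was called by label in any of these classes, with 18 tested in hypertrophic cells, 18 in osteoblast-like cells and 20 in other chondrocytes.

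**Figure D5:**
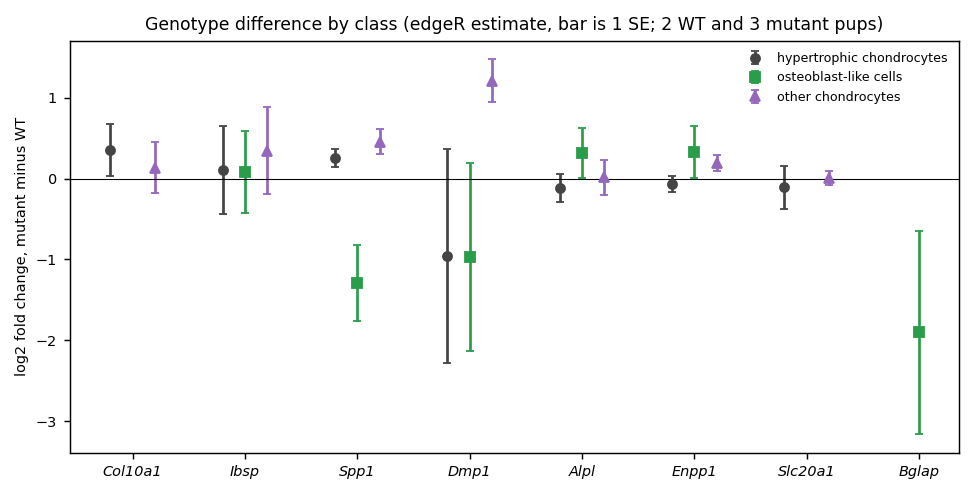
Log2 difference of mutant minus WT (y axis) for 8 genes in 3 cell classes as fitted by edgeR, from 2 WT and 3 mutant pups. Bars are 1 SE, worked out from the F statistic. No symbol is drawn where a gene was not tested. Spp1 lies below 0 in osteoblast-like cells (-1.30) and above 0 in both chondrocyte classes (0.25 and 0.45), and most other symbols lie within 1 SE of 0.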

How the data were processed

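For each pup, raw UMI counts of genes in barcodes were deposited, as the pipeline used by the authors wrote them. Its version and whether counting used strand were not given in the sources used here. Per the submitters' processing notes the build was mm10, which is GRCm38. Positions were taken from GENCODE M21 and promoter windows from RefSeq. Barcodes with 200 to 6000 genes and at most 10% mitochondrial UMIs were kept, as in the study. Of 84326 barcodes, 56 occurred in more than 1 pup. No doublet caller was run, and 1055 cells with UMIs of several background types or of background and matrix genes were left out. They made up 2.18% and 2.07% of kept cells in the WT pups and 1.05%, 0.503% and 0.673% in the mutant pups, which did not overlap.

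Chondrocytes had at least 200 UMIs per 10000 from 8 markers and more of these than of Col1a1 and Col1a2 together. Hypertrophic cells were chondrocytes with at least 20 per 10000 and 10 UMIs from 7 markers (Ihh, Panx3, Mmp13, Sp7, Pth1r, Sgms2 and Cd200). Osteoblast-like cells had more Col1 than chondrocyte marker UMIs and at least 6 per 10000 and 5 UMIs of 4 osteoblast markers. Mmp13-high cells were non-chondrocytes with Mmp13 at 50 or more per 10000, also where they met the osteoblast-like rule. Background cells had at least 10 UMIs of 1 of 4 lists and under 500 matrix UMIs per 10000. Members and lists were chosen with earlier results of these data known, and the limits after the marker distributions were seen. Named were the members, the 3 of 22 pathway genes with the largest change in each class comparison, any called by label, and the 5 genes (not class markers) most like Col10a1 and most like Ibsp.

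Counts were summed per pup and class and tested with edgeR 4.0.16 (TMM, filterByExpr, quasi-likelihood fit, Benjamini-Hochberg adjustment at 0.05) over all genes, and with DESeq2 1.42.0 in R 4.3.3. On simulated data edgeR recovered most changed genes in the class comparisons and in the label comparisons of both chondrocyte classes, with more false calls than the adjustment aims for. The changed genes all had a mean of at least 20 CPM and a log2 change of 1. Recovery of lower genes or smaller changes was therefore not measured. Dmp1 in both chondrocyte classes, and Ibsp and Alpl in other chondrocytes, lay below that level. The fit recovered few in the label comparison of osteoblast-like cells and in the difference between classes, and most calls of the latter were false. Class comparisons had the pup as a block, since both classes come from the same animal. The quasi-likelihood test gives no SE. Each SE printed with an edgeR value is its absolute log2 difference divided by the square root of its F statistic. Levels are CPM of summed counts. Shares used exact permutation tests with scipy 1.17.1. Alternatives were the normalization, the filter on low counts, doubled and halved class limits, leaving out each pup, an Xist covariate, no block, no upper limit on genes, and thinning to 5000 UMIs.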

Additional observations from a re-analysis of the deposited data

Results flagged for a closer look

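Cells removed by the upper limit of 6000 genes were examined because the main comparisons left them out. Of the cells that met the hypertrophic marker rule, the limit removed 61 of 351 in WT pup 1 (17.4%, 95% Wilson interval 13.8 to 21.7) and 88 of 643 in WT pup 2 (13.7%, 11.2 to 16.6). It removed 15 of 777 in mutant pup 3 (1.93%, 1.17 to 3.16), 2 of 478 in mutant pup 4 (0.418%, 0.115 to 1.51) and 6 of 254 in mutant pup 5 (2.36%, 1.09 to 5.06). Col10a1 in the removed cells was 3367 and 6946 CPM in the WT pups and 11945, 226 and 257 CPM in the mutant pups. The WT libraries were also the deeper ones, and the part of depth in this was not tested.

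Signals also appeared in cells that entered no comparison, above the background types. Alpl had a median of 52.2 CPM over pups in the remaining cells. In Mmp13-high cells Spp1 had a median of 4798 CPM and Ibsp one of 657 CPM.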

How the results depend on the processing

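In the class contrasts, hypertrophic against other chondrocytes called 11719 genes and osteoblast-like against hypertrophic cells 5659. Without the replicate block these were 10457 and 5467, and without 1 pup 10691 to 11273 and 4334 to 5429. The calls of Spp1 and Phex that were lost between osteoblast-like and hypertrophic cells are given with those results. No paired analysis was possible between genotypes because WT and mutant pups share no replicate number. The counts by label, all 0, moved with several settings. In hypertrophic cells they were 33 with no filter on low counts, 3 by DESeq2 and 0 to 5 without 1 pup. In osteoblast-like cells they were 16 with no filter, 21 with the Xist covariate, 1 by DESeq2 and 0 to 5 without 1 pup. In other chondrocytes they were 1 with no filter, 78 by DESeq2 and 0 to 23 without 1 pup. For the difference between classes they were 24 with no filter, 4 and 44 with the limits doubled and halved, 3 with no upper limit on genes and 5 to 65 without 1 pup. The label difference in the hypertrophic share, 0.178 percentage points, was -0.0311 with the limit doubled, -0.215 with no upper limit and -0.538 to 0.895 without 1 pup, and the osteoblast-like one, 0.227, was 0.0122 to 0.373. Some label differences (log2), none called as reported, changed sign. In hypertrophic cells Ibsp was -0.011 with the limit halved, and with the Xist covariate Ibsp was -0.15, Enpp1 0.039 and Slc20a1 0.23. In osteoblast-like cells Ibsp was -0.36 with the limit doubled and -0.93 with Xist, and Enpp1 -0.32 with it halved. In other chondrocytes Xist gave -0.31 for Col10a1 (0.82 and 1.38 with the limits doubled and halved), -0.76 for Ibsp and -0.46 for Alpl, no upper limit gave -0.049 for Alpl, and Slc20a1 was -0.0014 with no filter and -0.0083 with the limit doubled. For the difference between classes Dmp1 was 0.15 and 0.20 with the limits doubled and halved. Without 1 WT pup the other is assumed to vary like the mutant pups. Without 1 pup, the hypertrophic ranges were -0.40 to 0.96 for Ibsp, -0.32 to 0.011 for Alpl, -0.41 to 0.35 for Slc20a1 and -1.83 to 8.31 for Dmp1. Those of osteoblast-like cells were -0.60 to 0.42 for Ibsp and -0.14 to 1.06 for Alpl. Those of other chondrocytes were -0.25 to 0.67 for Col10a1, -0.35 to 0.69 for Ibsp, -0.12 to 0.21 for Alpl and -0.070 to 0.086 for Slc20a1, and that of Dmp1 for the difference between classes was -7.88 to 0.69, called only at its lowest, without WT pup 2 (adjusted p = 1.4e-10). Without WT pup 2 the WT hypertrophic sum holds no Dmp1 UMI, so -7.88 and 8.31 are no bounds. The causes were not tested. Size factors by median ratio turned no direction of a member. The 17 to 174 osteoblast-like cells per pup limit the precision of every value in that class.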
